A study of Mus musculus with 18 samples.

Results

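The mevalonate and squalene pathway enzymes described here are 9 genes, Hmgcs1, Mvk, Pmvk, Mvd, Idi1, Fdps, Fdft1, Sqle and Lss, of the 21441 genes listed in each of the deposited FPKM tables of macrophages and of liver. They were chosen by their symbols, as the steps of the pathway in order, with the FPKM values of both tables already known, so their levels and differences are a description of these libraries and no independent test. All 9 were listed in both tables, and 8 had a mean above 1 FPKM in each table and entered the fits. FPKM counts fragments per kilobase of transcript, scaled for sequencing depth, so levels of different genes can be set side by side within a table.

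The study asked how MIC-1, the main isothiocyanate of moringa seeds, changes the response to LPS, the cell wall component of Gram-negative bacteria that activates macrophages. RNA-seq covered 3 control, 3 LPS and 3 LPS+MIC-1 libraries of macrophages, and the same 3 groups of liver. The macrophages were RAW264.7 cells, a mouse macrophage-like line, with MIC-1 at 10 uM, and the livers came from wild type C57BL/6 mice, males per the study's methods. LPS (10 mg/kg) or saline was given by injection, MIC-1 (80 mg/kg, in DMSO) or vehicle by mouth on the 3 days before it, and livers were taken 16 h after the injection. The labels of the macrophage libraries carry the strain and doses of the mice too, and their culture times are not given in the sources used here. No group received MIC-1 without LPS. No source used here says that the macrophage libraries came from separate cultures, so p-values measure the spread between these libraries.

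Cholesterol is built from acetyl-CoA. The first steps make mevalonate, the middle steps convert it into isoprenoid units and join them into farnesyl pyrophosphate and squalene, and the last steps close and trim the sterol ring. SREBP2, a membrane-bound transcription factor released when sterols run low, switches on most of these genes together, through sterol regulatory elements that usually sit close to sites for NF-Y, which reads CCAAT, and for Sp1, which reads GC-rich boxes. Liver is a main site of cholesterol synthesis, while macrophages both make sterols and take them up as lipoproteins, and the middle of the pathway also feeds protein prenylation, ubiquinone and dolichol.

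Promoters were matched for 6 of the 9 genes in RefSeq windows of GRCm38.p6, with 2 windows for Pmvk, and the 250 bases before each annotated start were searched on both strands. The second Pmvk window, from position 89459321 on the plus strand, lies downstream of the other annotated Pmvk start, so it may hold transcribed bases. Sequences are shown as examples of the windows searched, for Hmgcs1 of the entry step, for Mvd and for Idi1, 1 of the genes that fell with LPS in liver. Mvd was called higher with LPS and lower when MIC-1 was added in macrophages without LPS library 2. Capitals mark matches to the sterol regulatory element, TCACNCCAC, and to the CCAAT box, CCAAT or its reverse complement ATTGG.
Hmgcs1 promoter, chr13:119690101-119690350, plus strand: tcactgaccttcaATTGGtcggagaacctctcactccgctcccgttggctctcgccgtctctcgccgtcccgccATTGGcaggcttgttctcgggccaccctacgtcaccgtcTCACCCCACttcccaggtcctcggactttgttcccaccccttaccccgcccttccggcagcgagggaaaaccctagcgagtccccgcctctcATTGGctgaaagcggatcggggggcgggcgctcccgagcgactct
Mvd promoter, chr8:122443423-122443672, minus strand: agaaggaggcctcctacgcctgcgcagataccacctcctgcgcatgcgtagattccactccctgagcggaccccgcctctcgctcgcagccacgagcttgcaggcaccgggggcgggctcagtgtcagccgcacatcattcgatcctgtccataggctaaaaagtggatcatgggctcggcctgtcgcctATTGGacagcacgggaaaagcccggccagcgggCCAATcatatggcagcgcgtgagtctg
Idi1 promoter, chr13:8885356-8885605, plus strand: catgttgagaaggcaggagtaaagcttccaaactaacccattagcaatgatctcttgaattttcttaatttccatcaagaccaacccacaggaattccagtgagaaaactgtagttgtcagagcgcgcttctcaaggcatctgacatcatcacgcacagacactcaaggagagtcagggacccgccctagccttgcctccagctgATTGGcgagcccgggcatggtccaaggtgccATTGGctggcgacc

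The sterol regulatory element was found in the Hmgcs1 window, where it starts 137 bases before the annotated start, and in no other of the 7 windows. It occurred in 1.05% of all 32851 windows of this length. A CCAAT box was found in 6 of the 7 windows, the exception being the second Pmvk window, against 33.8% of all windows. The GC box GGGCGG was in 5 of the 7, against 32.7% of all windows. The E-box CACGTG was in none of the 7 and in 6.02% of all windows. The Mvk window held 5 CCAAT boxes, the Hmgcs1 window 3, the Mvd and Idi1 windows 2 each, and the Lss window 1. A match is a description of letters and not a site, and a window without one says only that these letters are not in it.

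In macrophages, libraries 1 and 3 of each treatment, numbered in table order, lay close together and library 2 apart from them, and LPS library 2 stood with the controls. Over the 9905 tested genes its correlation was 0.990 with control library 2 and 0.862 with LPS library 1. Ccl5, a chemokine that LPS induces, was listed at 24670, 115 and 25370 FPKM in the 3 LPS libraries, against 46.7 to 101 in the controls. Each macrophage comparison is therefore given over all 9 libraries and without LPS library 2. The FPKM of LPS libraries 1 and 3 summed to 1137533 and 1132904, against 557136 to 652486 in the other 7. The mean normalized counts of the authors summed to 19645778 over genes in macrophages and 11026689 in liver, and the depth of single libraries is not given. In liver, over the 1904 genes with a mean normalized count of 500 to 2000, LPS library 2 differed from LPS libraries 1 and 3 by 97.1 and 109 times the variance of counting alone, LPS+MIC-1 library 2 from its libraries 1 and 3 by 49.1 and 53.1 times, and control library 1 from the other controls by 75.9 and 94.3 times. The remaining pairs were much closer, at 8.49 times for LPS libraries 1 and 3, 2.21 for LPS+MIC-1 libraries 1 and 3, and 8.49 for control libraries 2 and 3. The correlation of liver LPS library 2 over the tested genes was 0.889 and 0.893 with the other LPS libraries and 0.886, 0.885 and 0.855 with the controls. It was highest with LPS+MIC-1 library 2, at 0.947. The latter was at 0.935 and 0.932 with the libraries of its own group, so these libraries numbered 2 lay closer to each other than to their own groups. Hepatocyte markers summed to 34600 FPKM or more in every liver library and to at most 13.5 FPKM in every macrophage library. Macrophage markers summed to 10900 to 13400 FPKM in the macrophage libraries, where the cholangiocyte markers Krt19, Krt7 and Epcam were listed at 0.

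Fdps, the synthase that makes farnesyl pyrophosphate, had the highest FPKM of the pathway in both tissues. Its control mean was 288 ± 78.9 FPKM (SD, n = 3) in macrophages and 252 ± 10.6 FPKM in liver. The tables were normalized separately, so levels were not tested between them. Below it in control macrophages lay Sqle at 39.5 ± 11.0, Idi1 at 33.8 ± 11.8, Mvd at 31.0 ± 6.59 and Pmvk at 26.7 ± 6.40 FPKM. Their mean ± SD overlapped, although within each control library Sqle was the highest of them and Pmvk the lowest. Then came Lss at 11.6 ± 3.47, Mvk at 10.2 ± 1.71 and Hmgcs1 at 5.64 ± 1.15 FPKM. In control liver Idi1 at 49.7 ± 4.09 and Mvd at 24.7 ± 2.70 FPKM followed Fdps, ahead of Sqle at 15.6 ± 2.91 FPKM. Pmvk, Lss, Mvk and Hmgcs1 came next in liver, at 10.2 ± 8.83, 10.2 ± 1.23, 8.34 ± 0.929 and 4.68 ± 3.05 FPKM, where the mean ± SD of neighbours in this order overlapped while every Lss value lay above every Hmgcs1 value.

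**Figure D1:**
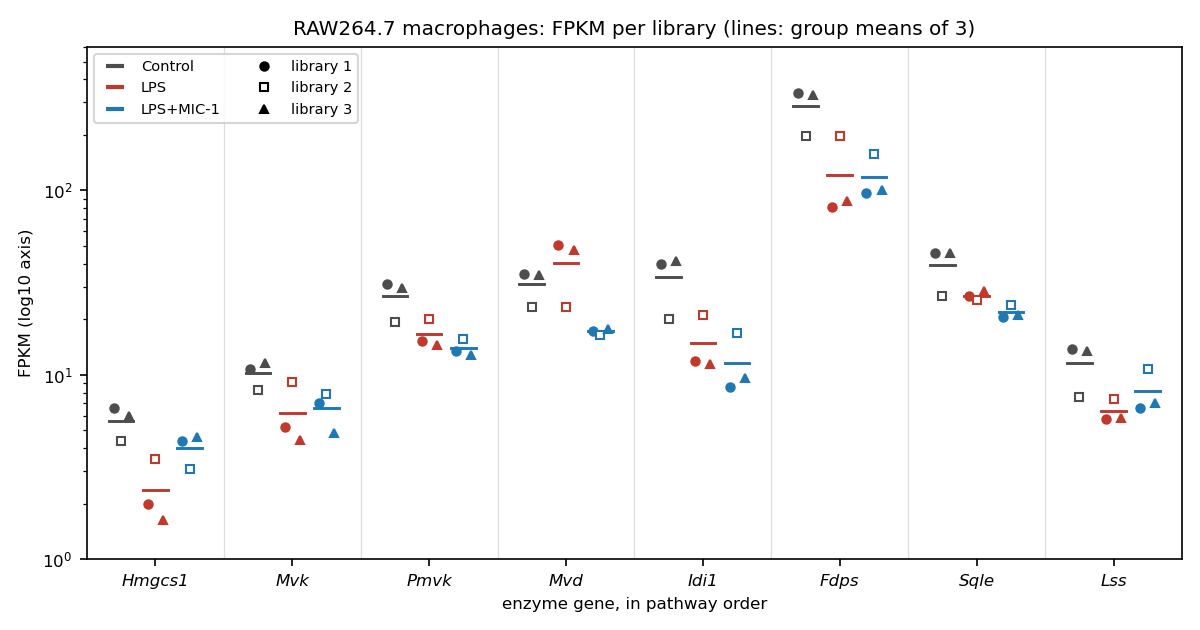
FPKM (log10 axis) of the 8 tested enzyme genes in the 9 macrophage libraries, in pathway order, with colours for treatments, symbols for libraries 1 to 3 and lines for group means. Libraries 1 and 3 sit together and library 2 (open squares) apart, and for Fdps control library 2 at 197 and LPS library 2 at 196 FPKM coincide.

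In macrophages, LPS libraries 1 and 3 were below all controls for 6 of the 8 tested enzyme genes, against 43.4% of all tested genes. They were above all controls for Mvd, 1 of 8 against 42.2% of all genes, and for Sqle they overlapped. Over all 9 libraries no enzyme gene passed between LPS and control (limma, Benjamini-Hochberg adjusted p below 0.05), 0 of 8 higher and 0 of 8 lower. No other gene passed, with 0.0% of 9905 called higher and 0.0% lower, although 4928 of them had an unadjusted p under 0.05, as had 7 of the 8 enzyme genes. Without LPS library 2, Hmgcs1, Mvk, Pmvk, Idi1, Fdps and Lss fell, 6 of 8 against 38.2% of all tested genes called lower, and Mvd rose, 1 of 8 against 36.9% called higher. The median log2 fold change of the 8 was -0.96, beside -0.02 over all tested genes. With FPKM scaled to an equal total per library, 1171 of all tested genes were called higher and 7035 lower, against 3659 and 3786 as deposited. Only 2 LPS libraries stand behind these calls, and over 3852 genes in that range of mean count they differed by 3.11 times the variance of counting alone, against 207 and 212 times for the pairs with library 2.

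Hmgcs1, the cytosolic HMG-CoA synthase of the entry step whose promoter is shown above, was at 6.57, 4.36 and 5.99 FPKM in control macrophages and at 1.98, 3.48 and 1.62 FPKM with LPS. Every LPS library lay below every control library, with LPS library 2 nearest to them. The log2 fold change was -1.14 (SE 0.28, limma adjusted p = 0.0777) over 9 libraries and -1.40 (SE 0.21, limma adjusted p = 0.000497) without LPS library 2. With MIC-1 beside LPS it was at 4.40, 3.07 and 4.59 FPKM, all above LPS libraries 1 and 3, and libraries 1 and 3 were just above control library 2.

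Mvk, mevalonate kinase (chr5:114894278-114910600, mm9), was at 10.8, 8.29 and 11.6 FPKM in controls and at 5.18, 9.11 and 4.42 FPKM with LPS. Pmvk, phosphomevalonate kinase (chr3:89263040-89272935, mm9), was at 31.2, 19.4 and 29.5 FPKM in controls and at 15.2, 20.1 and 14.5 FPKM with LPS. For both kinases LPS library 2 was the only LPS library inside the range of the controls. Without it the log2 fold changes were -1.01 for Mvk (SE 0.21, limma adjusted p = 0.00303) and -0.80 for Pmvk (SE 0.19, limma adjusted p = 0.00643), and with it -0.72 and -0.66.

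Mvd, mevalonate diphosphate decarboxylase (chr8:124957496-124967322, mm9), makes isopentenyl pyrophosphate, the isoprenoid unit. It was at 35.0, 23.4 and 34.6 FPKM in controls and at 50.6, 23.4 and 47.7 FPKM with LPS. LPS libraries 1 and 3 were above all 3 controls and LPS library 2 was level with control library 2. The log2 fold change was 0.68 (SE 0.17, limma adjusted p = 0.00632) without LPS library 2 and 0.33 (SE 0.29, limma adjusted p = 0.369) with it, but it turned to -0.30 and -0.35 with FPKM scaled to an equal total per library. That scaling moved the median of all tested genes to -0.93 without LPS library 2, so relative to all genes Mvd stayed on the higher side.

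Idi1, the isomerase that interconverts the isoprenoid units (chr13:8884852-8891641, mm9), was at 39.9, 20.1 and 41.3 FPKM in control macrophages and at 11.9, 21.0 and 11.4 FPKM with LPS. Fdps (chr3:88897514-88905881, mm9) was at 338, 197 and 329 FPKM in controls and at 80.9, 196 and 87.6 FPKM with LPS. In each gene LPS libraries 1 and 3 lay close together below all controls, and LPS library 2 lay next to control library 2. Fdps had the largest drop of the pathway without LPS library 2, at -1.73 (SE 0.28, limma adjusted p = 0.000727), and Idi1 was at -1.43 (SE 0.36, limma adjusted p = 0.00779). Over 9 libraries they were at -1.32 and -1.15.

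Sqle, squalene epoxidase, a rate-limiting, oxygen-using step of the sterol branch (chr15:59146632-59162747, mm9), was at 45.7, 26.8 and 45.9 FPKM in controls and at 26.7, 25.6 and 28.4 FPKM with LPS. Its 3 LPS libraries had a coefficient of variation of 5.23%, and control library 2 lay among them. Its log2 fold change of -0.50 (SE 0.21, limma adjusted p = 0.089) over 9 libraries and -0.47 without LPS library 2 did not pass. Lss, lanosterol synthase, which closes the ring (chr10:75994333-76019883, mm9), was at 13.7, 7.59 and 13.5 FPKM in controls and at 5.73, 7.39 and 5.84 FPKM with LPS. All LPS libraries lay below the controls, by a narrow margin for library 2, and the log2 fold change without that library was -0.90 (SE 0.28, limma adjusted p = 0.0208).

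Fdft1, squalene synthase (chr14:63763990-63796630, mm9), was listed near or at 0 between these abundant neighbours and was not tested. Why it was listed so low was not tested either, so its values are not read as absence of the enzyme. In macrophages it was at 0.164, 0.0633 and 0.120 FPKM in controls, at 0, 0 and 0.266 FPKM with LPS, and at 0.140, 0 and 0.167 FPKM when MIC-1 was added. In liver it was listed at 0 in all 3 controls, at 0.0834, 0.122 and 0 FPKM with LPS and at 0.194, 0 and 0.103 FPKM with LPS+MIC-1. The authors' mean normalized count was 7.04 in macrophages and 2.20 in liver, beside 3738 and 2426 for Fdps.

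When MIC-1 accompanied LPS in macrophages, the enzyme genes split: Mvd was lower than with LPS alone, Hmgcs1 was higher once LPS library 2 was left out, and the others were not called. The comparison uses the same LPS libraries as the one above. The 5 listed neutrophil markers summed to 1.46 to 2.62 FPKM in controls, 4.01 to 39.9 FPKM with LPS and 653 to 720 FPKM when MIC-1 was present, nearly all of it S100a8, while S100a9 was at or near 0, and their part in the enzyme values was not tested. Mvd was at 17.3, 16.5 and 17.8 FPKM with LPS+MIC-1, below every LPS and every control library, and the coefficient of variation of these 3 libraries was 3.95%. Its log2 fold change against LPS was -1.14 (SE 0.29, limma adjusted p = 0.0312) over 9 libraries, 1 of 8 against 11.4% of all genes called lower and 0 of 8 against 10.2% called higher. That call was lost without control library 1 or 3, LPS library 1 or 3, or any of the LPS+MIC-1 libraries, with log2 fold changes of -1.16 to -0.94. Without LPS library 2 it was -1.49 (SE 0.17, limma adjusted p = 0.000135), 1 of 8 against 34.1% of all genes called lower. With the equal-total scaling it was -0.65 over 9 libraries, no longer called, and -0.70 without LPS library 2.

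Hmgcs1 was higher with LPS+MIC-1 than with LPS by 0.96 (SE 0.21, limma adjusted p = 0.00463) without LPS library 2, 1 of 8 against 34.0% of all genes called higher, and by 0.69 (SE 0.28, limma adjusted p = 0.105) over 9 libraries. Fdps was at 97.0, 157 and 100 FPKM with LPS+MIC-1 and Idi1 at 8.54, 16.8 and 9.56 FPKM. In both genes library 2 was the highest of its group, as it was in the LPS group. Idi1 libraries 1 and 3 were below the LPS libraries 1 and 3, and those of Fdps above them, but the log2 fold changes without LPS library 2 were -0.06 (SE 0.36) for Idi1 and 0.45 (SE 0.28) for Fdps and neither was called. Pmvk at 13.4, 15.5 and 12.7 FPKM, Mvk at 7.07, 7.86 and 4.85 FPKM, Sqle at 20.5, 24.0 and 21.0 FPKM and Lss at 6.58, 10.8 and 7.06 FPKM were not called either. With the equal-total scaling and without LPS library 2, the 8 log2 fold changes rose with the median of all genes (0.74), and Pmvk, Idi1 and Sqle turned to 0.68, 0.70 and 0.46. In that setting 5 of 8 were called higher, Hmgcs1, Mvk (1.12), Pmvk, Fdps (1.25) and Lss (1.16), against 67.3% of all genes, and Mvd lower, against 10.5%.

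Against controls, macrophages with LPS+MIC-1 were lower in all 8 tested enzyme genes, with log2 fold changes from -1.49 to -0.44 and a median of -0.80, beside -0.04 over all genes. Idi1 fell by 1.49 (SE 0.38, limma adjusted p = 0.0249), Fdps by 1.28 (SE 0.38, limma adjusted p = 0.0423), Pmvk by 0.89 (SE 0.21, limma adjusted p = 0.019) and Sqle by 0.80 (SE 0.21, limma adjusted p = 0.027). These were 4 of 8, against 13.0% of all genes called lower, and 0 of 8 were called higher, against 11.8%. In each of these 4 genes, and also in Mvk and Mvd, every LPS+MIC-1 library lay below every control library. That was 6 of 8, against 34.9% of all tested genes. The 4 calls were all lost without control library 1, control library 3, LPS+MIC-1 library 1 or LPS+MIC-1 library 3, where the 4 log2 fold changes ran from -1.39 to -0.67, and those of Fdps (-1.5) and Sqle (-0.87) were lost without LPS+MIC-1 library 2. All 4 were also lost over 9 libraries on the equal-total scale, at -1.68, -1.47, -1.08 and -0.99 for Idi1, Fdps, Pmvk and Sqle, where Mvd was the 1 enzyme gene called. With LPS library 2 left out of the fit, which narrows the estimated spread, Mvk (-0.61) and Mvd (-0.81) joined them, 6 of 8 against 32.2% called lower and 0 of 8 against 28.1% called higher.

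**Figure D2:**
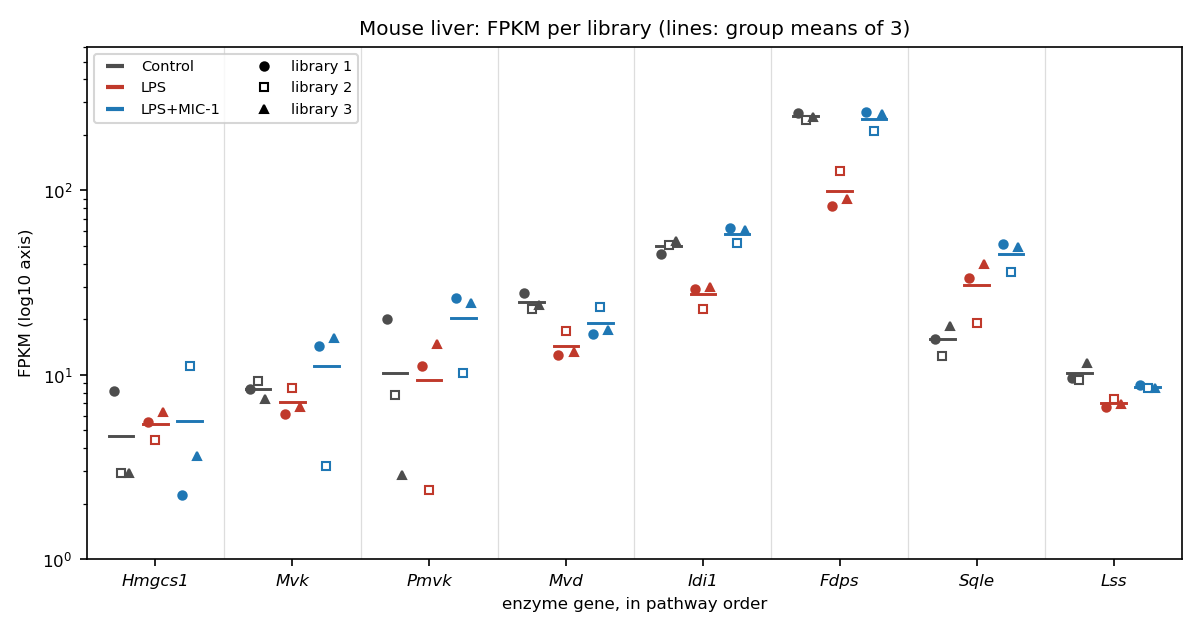
FPKM (log10 axis) of the 8 tested enzyme genes in the 9 liver libraries, in pathway order, with colours for treatments, symbols for libraries 1 to 3 and lines for group means. On FPKM as deposited, Fdps and Idi1 drop in all 3 LPS livers and lie near the controls with LPS+MIC-1, while Sqle climbs from 12.7 to 18.5 FPKM in controls to 36.1 to 51.0 FPKM with LPS+MIC-1.

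In liver, 4 enzyme genes of the later steps were lower with LPS and 1 was higher. Mvd, Idi1, Fdps and Lss fell, 4 of 8 against 15.5% of all 10147 tested genes called lower, and Sqle rose, 1 of 8 against 19.2% called higher. Hmgcs1, Mvk and Pmvk, the entry step and the kinases, did not pass. The median log2 fold change of the 8 was -0.36, beside 0.15 over all tested genes. Scaled to an equal total, 1119 of all genes were called higher and 2473 lower, against 1947 and 1573 as deposited. Without LPS library 2 the same 4 were called lower and Sqle higher, with log2 fold changes of -0.89 for Mvd, -0.73 for Idi1, -1.55 for Fdps, -0.54 for Lss and 1.22 for Sqle, beside 21.5% of all genes called lower and 27.5% higher. Liver holds several cell types, and fewer cells of a type and less RNA per cell cannot be told apart in these samples.

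Fdps was at 263, 242 and 251 FPKM in control liver and at 82.5, 128 and 89.4 FPKM with LPS. The LPS mean was 39.6% of the control mean, and the highest LPS library lay far below the lowest control library. The log2 fold change was -1.36 (SE 0.21, limma adjusted p = 0.00379), the largest of the pathway in liver. Idi1 was at 45.2, 50.7 and 53.1 FPKM in controls and at 29.3, 22.8 and 30.0 FPKM with LPS, again without overlap, with a log2 fold change of -0.86 (SE 0.18, limma adjusted p = 0.00941). These 2 calls were kept when any 1 of the 9 liver libraries was left out.

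Mvd was at 27.8, 22.6 and 23.8 FPKM in control liver and at 12.8, 17.2 and 13.3 FPKM with LPS, a log2 fold change of -0.76 (SE 0.20, limma adjusted p = 0.0204). Lss was at 9.63, 9.41 and 11.6 FPKM in controls and at 6.71, 7.42 and 6.95 FPKM with LPS, a log2 fold change of -0.51 (SE 0.15, limma adjusted p = 0.0318). The groups did not overlap in either gene, and LPS library 2 was the nearest to the controls in both. The Mvd call was lost without control library 3 (-0.79), LPS library 1 (-0.69) or LPS library 3 (-0.71). The Lss call was lost without control library 2 (-0.56), control library 3 (-0.41), LPS library 1 (-0.48), LPS library 3 (-0.50), LPS+MIC-1 library 1 or LPS+MIC-1 library 3 (-0.51 in both).

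Sqle was higher with LPS in liver. It was at 15.5, 12.7 and 18.5 FPKM in controls and at 33.7, 19.0 and 39.8 FPKM with LPS. All LPS libraries were above the controls, library 2 by little. The log2 fold change was 0.91 (SE 0.29, limma adjusted p = 0.042), and the call was lost without any 1 library other than LPS library 2 and LPS+MIC-1 library 2, with log2 fold changes of 0.70 without LPS library 3, 0.78 without control library 2, 0.82 without LPS library 1, 0.91 without LPS+MIC-1 library 1 or 3, 0.92 without control library 1 and 1.04 without control library 3. It was lost as well with the equal-total scaling (0.56).

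For the entry step and the kinases the livers of all treatments overlapped. Hmgcs1 was at 8.20, 2.93 and 2.91 FPKM in controls, at 5.54, 4.40 and 6.25 FPKM with LPS and at 2.23, 11.1 and 3.61 FPKM with LPS+MIC-1. Mvk was at 8.35, 9.26 and 7.41, at 6.14, 8.43 and 6.73, and at 14.3, 3.20 and 15.8 FPKM in the same order. Pmvk was at 20.0, 7.74 and 2.86, at 11.2, 2.38 and 14.6, and at 26.1, 10.2 and 24.5 FPKM. The coefficient of variation of Pmvk was 86.6% among the 3 controls, against 4.21% for Fdps in the same libraries. With LPS+MIC-1, library 2 was the high one for Hmgcs1 and the low one for Mvk and Pmvk.

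Markers of other cell types were also described in liver, where 15.5% of all genes were called lower with LPS and 19.2% higher. The 5 listed neutrophil markers summed to 2.81 to 9.05 FPKM in controls, 284 to 356 FPKM with LPS and 164 to 405 FPKM with LPS+MIC-1, and 4 of 4 tested rose with LPS. The 6 hepatocyte markers summed to 40900 to 81000, 34600 to 45700 and 34800 to 44900 FPKM, and 1 of 6 was lower with LPS. The 1 that was lower was Cps1, of the urea cycle, at 300.5, 235.5 and 234.3 FPKM in controls, 71.8, 82.2 and 67.5 FPKM with LPS, and 267, 57.1 and 268 FPKM once MIC-1 was given. Kupffer cell markers were called lower in 2 of 4 and higher in 1 of 4 with LPS, endothelial markers lower in 2 of 5 and higher in 1 of 5, and macrophage markers higher in 2 of 4. In lists this short, counts of 1 lie near the shares of all genes. The endothelial markers summed to 35.4 to 38.7 FPKM in controls, 12.6 to 20.2 FPKM with LPS and 13.0 to 31.0 FPKM with LPS+MIC-1. Among them Clec4g had means of 25.6, 3.05 and 10.9 FPKM in these groups and Kdr of 3.26, 1.02 and 2.77 FPKM. Of the 5 endothelial log2 fold changes with LPS, 3 were negative and 2 positive. Cdh5, on the positive side, was at 2.13, 2.69 and 2.05 FPKM in controls and at 5.32, 2.63 and 4.63 FPKM with LPS. Pecam1, also positive, was at 1.91, 0 and 0 FPKM in controls and at 2.23, 3.89 and 3.025 FPKM with LPS. None of the defining hepatocyte markers was at 0 in any liver library, and the part of these changes in the enzyme values was not tested.

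With MIC-1 beside LPS, liver Fdps and Idi1 on FPKM as deposited lay at the level of the controls rather than at that of LPS, but no gene passed over the whole table. With the equal-total scaling, Fdps was called lower than in controls (-0.70, limma adjusted p = 0.0228), and Idi1 was at -0.42 and not called. Fdps was at 265.1, 211 and 260 FPKM with LPS+MIC-1, above all 3 LPS livers, and its mean of 245 ± 29.7 FPKM was 246% of the LPS mean and 97.4% of the control mean. Idi1 was at 62.4, 51.7 and 60.8 FPKM, 213% of the LPS mean and 117% of the control mean. The log2 fold changes against LPS were 1.31 (SE 0.21) for Fdps and 1.08 (SE 0.18) for Idi1, with a limma adjusted p of 0.518 in both. The enzyme genes passed in 0 of 8 cases in either direction, against 0.0% of all genes called higher and 0.0% called lower by limma, with 364 of 10147 genes, and Fdps and Idi1 of the 8, at an unadjusted p under 0.05. Fdps passed without LPS library 2, at 1.5 (limma adjusted p = 0.0293), where 20 of all genes were called higher and 16 lower, and no other enzyme gene passed whichever library was left out.

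Lss was at 8.79, 8.48 and 8.43 FPKM with LPS+MIC-1, above the LPS livers and below the controls. Mvd was at 16.7, 23.4 and 17.4 FPKM, overlapping both other groups. Sqle was at 51.0, 36.1 and 49.2 FPKM, above the controls and overlapping the LPS livers. The log2 fold changes against LPS were 0.27 for Lss (SE 0.15), 0.39 for Mvd (SE 0.20) and 0.60 for Sqle (SE 0.29), and none passed. Across the 8 enzyme genes 7 had a positive log2 fold change and the median was 0.50, beside -0.01 over all genes. With the equal-total scaling, which moved that median of all genes to -0.26, Lss came to -0.003.

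Against controls, Sqle was the 1 enzyme gene of 8 that passed in LPS+MIC-1 livers. It rose to 292% of the control mean, a log2 fold change of 1.52 (SE 0.29, limma adjusted p = 0.00707), 1 of 8 against 20.1% of all genes called higher, and it kept this call without any 1 of the libraries. None fell, 0 of 8 against 16.3% of all genes called lower. Fdps was at -0.04 (SE 0.21), Idi1 at 0.23 (SE 0.18), Mvd at -0.37 (SE 0.20) and Lss at -0.24 (SE 0.15), and Mvk was called higher, at 0.82 (limma adjusted p = 0.0218), when LPS+MIC-1 library 2 was left out. The FPKM sums of the LPS+MIC-1 livers, 1000904 to 1063784, were above those of the controls, 590303 to 758661. With the equal-total scaling, which moved the median of all genes from 0.15 to -0.43 and the calls over all genes from 2038 higher and 1654 lower to 733 and 3443, Mvd, Fdps and Lss were called lower, at -1.01, -0.70 and -0.86, Idi1, Hmgcs1 and Mvk turned to -0.42, -0.46 and -0.49, and Sqle was still called higher.

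**Figure D3:**
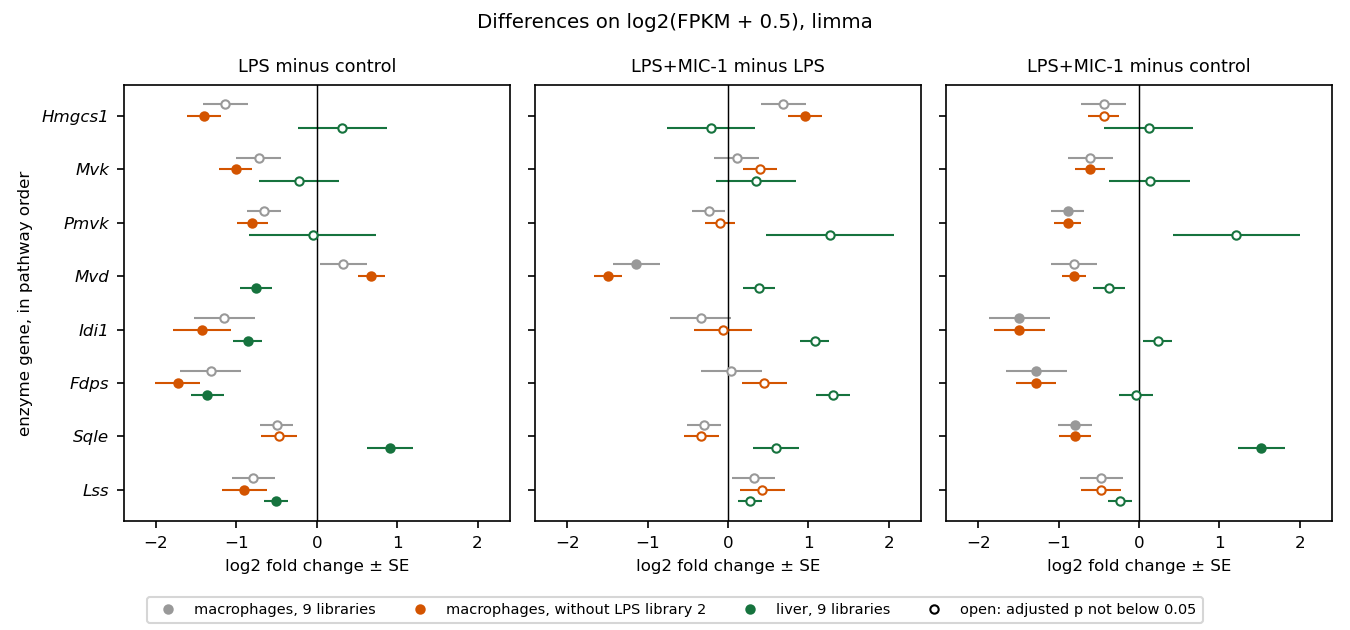
Log2 fold change on log2(FPKM + 0.5) with its standard error for the 8 tested enzyme genes, by comparison, in macrophages over 9 libraries (grey), in macrophages without LPS library 2 (orange) and in liver (green), with filled points where the limma adjusted p was below 0.05. Idi1 and Fdps lie left of 0 with LPS in both tissues, and Sqle lies left of 0 in macrophages and right of 0 in liver.

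The average of the 8 z-scores, each gene scaled over the 9 libraries of its table, summarises the shared movement and carries no test. In macrophages it was 1.34, 0.11 and 1.31 in controls, -0.55, 0.07 and -0.65 in LPS libraries, and -0.68, -0.20 and -0.75 where MIC-1 was added. On this average, libraries 1 and 3 with MIC-1 lay near LPS libraries 1 and 3, far from the controls, and the library 2 values of all treatments lay between. Single genes differed, since without library 2 of every treatment 4 of 8 were called lower than with LPS and 3 higher, against 38.7% and 37.3% of all genes. The average lets such opposite moves cancel, and it was taken on FPKM as deposited. In liver it was 0.49, -0.01 and 0.09 in controls, -0.65, -0.74 and -0.45 in LPS livers, and 0.47, 0.24 and 0.56 where MIC-1 was given, so that the LPS livers were apart from both other groups.

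**Figure D4:**
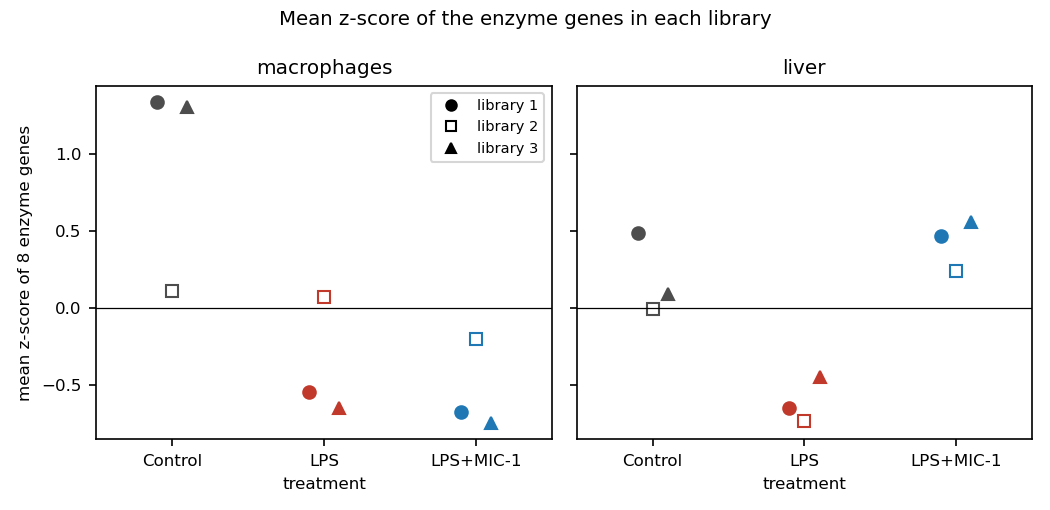
Mean z-score of the 8 tested enzyme genes in each library, by treatment, in macrophages and in liver, with symbols for libraries 1 to 3. LPS+MIC-1 libraries 1 and 3 lie near LPS libraries 1 and 3 in macrophages (-0.68 and -0.75), and all 3 LPS+MIC-1 libraries lie above every LPS library in liver (0.24 to 0.56).

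The genes whose values were most like this average over the 9 libraries of a table, by Pearson r across libraries that share treatments and scaling, were other lipid genes in part. In macrophages the nearest of 9897 genes was Stard4 (0.987), a carrier of cholesterol between membranes, followed by Tra2a (0.985), Gabpb2 (0.981), Fads2 (0.978), a fatty acid desaturase, Pank3, Hadha, Agpat5, Qser1, Acaca and Rqcd1 (0.974), with Acaca the acetyl-CoA carboxylase of fatty acid synthesis. In liver the nearest of 10139 was Sc4mol (0.940), the methyl oxidase that acts after Lss, followed by Ccbl2 (0.930), Serpina12 (0.909), Tesk1, Abhd14a, Rarres1, Npr2, Ypel2, Sel1l3 and Gsto1 (0.887). No gene is shared by the 2 groups of 10.

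The enzymes after Lss were described from a list of 9 genes, all tested in both tissues. In liver with LPS 2 of 9 fell, against 15.5% of all genes, Nsdhl by 2.43 and Sc5d by 1.45 on the log2 scale, none rose, and the median was -0.55, beside 0.15 over all genes. With LPS+MIC-1 against LPS 0 of 9 passed, where 0.0% of all genes passed. The median was 0.47, and all 9 log2 fold changes were positive, from 0.02 for Lbr to 1.24 for Nsdhl. Scaled to an equal total, 6 of 9 were called lower with LPS, against 24.4% of all genes, Dhcr7, Ebp, Sc4mol and Tm7sf2 being added, and the log2 fold changes of Hsd17b7, Lbr and Sc5d against LPS turned to between -0.22 and -0.17. Against controls Cyp51 (0.95) was higher, and Nsdhl (-1.19) and Sc5d (-1.33) were lower, and the equal-total scaling ended the call of Cyp51 (0.30). In macrophages without LPS library 2, 4 of 9 fell with LPS, against 38.2% of all genes, among them Lbr (-3.13) and Hsd17b7 (-0.85), and Dhcr7 rose (0.71), and with MIC-1 beside LPS 2 rose and 3 fell, against 34.0% and 34.1%, with Dhcr7 at -1.53, Tm7sf2 at -1.43 and Lbr at 0.82. On the equal-total scaling 8 of the 9 were lower with LPS, against 71.0% of all genes, and Dhcr7 turned to -0.26, and with MIC-1 beside LPS 4 were higher and 2 lower, against 67.3% and 10.5%. Over all 9 macrophage libraries 0 of 9 passed with LPS, where 0.0% of all genes passed. Between LPS+MIC-1 and LPS 2 of 9 fell, against 11.4% of all genes, and 0 of 9 rose, against 10.2%.

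Another list held 9 genes of supply and isoprenoid branches, 7 of them tested in liver and 8 in macrophages. In liver with LPS, Acat2, which joins acetyl-CoA units ahead of Hmgcs1, fell (-0.73), and Fnta, a subunit of the enzymes that prenylate proteins, rose (1.04), so that 1 of the 7 tested fell and 1 rose, against 15.5% and 19.2% of all genes. None of the 7 passed between LPS+MIC-1 and LPS in liver, where 0.0% of all genes passed. In macrophages without LPS library 2, 6 of 8 fell with LPS, against 38.2% of all genes, among them Pdss1 (-2.83), Acat2 (-2.12) and Fntb (-0.47). Ggps1, the synthase of geranylgeranyl pyrophosphate, was among those that fell, at 3.13, 3.44 and 3.10 FPKM in controls, while LPS libraries 1 and 3 listed it at 0, LPS library 2 held 2.70 FPKM and the LPS+MIC-1 libraries held 2.77, 2.46 and 2.36 FPKM. With MIC-1 beside LPS, Ggps1 and Pdss1 (1.33) were higher and Fnta (-0.45) lower, 2 and 1 of 8 against 34.0% and 34.1% of all genes. Scaled to an equal total, 8 of 8 were lower with LPS, against 71.0% of all genes, and 7 of 8 were higher with MIC-1 beside it, against 67.3%, where Fnta turned to 0.34. Over 9 macrophage libraries as deposited, 0 of 8 passed in either comparison. Of all genes 0.0% passed with LPS, and with MIC-1 beside it 10.2% were called higher and 11.4% lower.

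Of 8 genes of SREBP2 control and sterol carriage, 7 were tested in each tissue. In liver with LPS, Insig1 (-2.25), which holds SREBP in the endoplasmic reticulum and is itself a target of it, Stard4 (-1.15) and Scap (-0.65) fell, 3 of 7 against 15.5% of all genes, and Insig2 (2.79) rose, 1 of 7 against 19.2%. Srebf2 itself, which encodes SREBP2, was at 7.14, 4.54 and 3.47 FPKM in control liver and at 11.8, 4.86 and 8.95 FPKM with LPS, and was not called (0.68, SE 0.43). None of the 7 passed between LPS+MIC-1 and LPS there, as 0.0% of all genes did. In macrophages without LPS library 2, Insig1 (1.13) and Insig2 (1.06) rose with LPS and Mbtps1 (-1.10), Stard4 (-0.98) and Mbtps2 (-0.44) fell, 2 and 3 of 7 against 36.9% and 38.2% of all genes. With MIC-1 beside LPS, Insig1 (-2.18), Srebf2 (-0.91) and Insig2 (-0.65) were lower and Mbtps1 (0.82) and Mbtps2 (0.38) higher, 3 and 2 of 7 against 34.1% and 34.0%. After scaling to an equal total Insig1 (0.15) and Insig2 (0.12) were no longer called with LPS while Scap (-1.29) and Srebf2 (-0.80) were newly called lower, and with MIC-1 beside it Insig1 (-1.39) stayed lower, Srebf2 (-0.11) was not called and Insig2 turned to 0.11. Over 9 macrophage libraries 0 of 7 passed with LPS, where 0.0% of all genes passed. Srebf2 (-0.77) was the 1 gene of 7 called lower between LPS+MIC-1 and LPS, against 11.4% of all genes, and 0 of 7 were higher, against 10.2%.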

How the data were processed

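The authors pseudoaligned the reads with kallisto 0.45.0 to mm9 transcripts, summed them per gene and deposited FPKM values scaled between libraries by DESeq2 1.20.0. They also deposited 3 comparisons per tissue (fold changes, p-values), of which only the mean signal, a normalized count over all libraries, was used. Columns name the treatment but no replicate, so libraries were numbered in table order, and 0 columns were left unmatched. Each table was fitted alone on log2(FPKM + 0.5), over genes with a mean FPKM above 1, with limma 3.58.1 (trend, all 3 groups) in R 4.3.3 and Benjamini-Hochberg adjustment over all tested genes, called below 0.05. Fold changes on this scale understate the changes of low genes. The scripts were tested on simulated data. Where the study used 8 macrophage libraries, an LPS library was left out, and its text does not say which. All members were named, lists were described by counts, and the 10 genes with the highest Pearson r to the mean z-score were named. Members and lists were chosen with earlier results of these data known. Alternatives covered the pseudocount, filter, scaling, variance prior, groups in the fit, threshold and each library left out. Promoters came from RefSeq (GRCm38.p6), and gene positions from GENCODE on mm9, the build of the files. The genes Cd68, Ly6g and Mylip of the lists are not analysed here, and some other list genes are not reported here and stand outside the list counts.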

Additional observations from a re-analysis of the deposited data

Results flagged for a closer look

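Several enzyme genes lay on opposite sides in the 2 tissues, with every library of the first-named group on 1 side of the mean of the second on log2(FPKM + 0.5) in macrophages and on the opposite side in liver, although the ranges of the groups could overlap. The differences between tissues were not tested, since the tables were normalized separately. Sqle did so in all 3 comparisons, with log2 fold changes of -0.50 in macrophages and 0.91 in liver for LPS against control, -0.30 and 0.60 for LPS+MIC-1 against LPS, and -0.80 and 1.52 for LPS+MIC-1 against control. Pmvk was at -0.24 in macrophages and 1.27 in liver for LPS+MIC-1 against LPS and at -0.89 and 1.21 against control. Hmgcs1 was at -1.14 in macrophages and 0.32 in liver for LPS against control, Mvd at -1.14 and 0.39 for LPS+MIC-1 against LPS, and Idi1 at -1.49 and 0.23 for LPS+MIC-1 against control. Some of these opposite directions turned with FPKM rescaled to the same sum, since Sqle (0.19) and Pmvk (0.24) against LPS became positive in macrophages and Idi1 against control (-0.42) became negative in liver.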

How the results depend on the processing

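No paired analysis was possible because the columns carry no replicate number. Of the log2 fold changes of single enzyme genes, 340 values under other settings stayed on their side of the threshold, 38 newly passed, 17 no longer passed and 13 reversed. These settings include 2 that were chosen after seeing the data, both given below. Most of the newly passing values came from these 2, while all those that no longer passed came from the planned settings. With FPKM rescaled to the same sum, the number of enzyme genes called became 0 for LPS+MIC-1 against LPS and 1 against control in macrophages, and 4 against control in liver. In these comparisons, in that order, 16.0%, 14.3% and 41.2% of all genes were called. The values that reversed were Mvd against control with LPS (-0.35) and Pmvk (0.24), Idi1 (0.13) and Sqle (0.19) against LPS in macrophages, and Lss against LPS (-0.003) and Hmgcs1 (-0.46), Mvk (-0.49) and Idi1 (-0.42) against control in liver with LPS+MIC-1. This rescaling moved the median of all genes to -0.65, 0.44 and -0.21 in the 3 macrophage comparisons. Rescaled and without LPS library 2, a setting chosen after seeing the data, 7, 6 and 7 of the 8 enzyme genes were called in these comparisons (LPS against control, LPS+MIC-1 against LPS, LPS+MIC-1 against control), beside 82.8%, 77.8% and 63.0% of all genes, with 0, 5 and 0 of them higher, and with Mvd at -0.30, Pmvk at 0.68, Idi1 at 0.70 and Sqle at 0.46 reversed. Without library 2 of every treatment, also chosen after seeing the data, the counts were 8, 7 and 8, beside 81.3%, 76.0% and 69.1% of all genes. With libraries 1 and 3 averaged they were 0 for both MIC-1 comparisons, where no gene of the table was called, and Fdps against LPS reversed to -0.05. When each fit held just the pair of groups compared, the count was 0 for macrophages with LPS+MIC-1 against LPS and 3 for liver with LPS against control. Of all genes, 295 of 9905 were then called higher and 259 lower in macrophages, and 1244 of 10147 higher and 1111 lower in liver. At an adjusted p below 0.01 and an absolute log2 fold change above 1, it was 0 for both MIC-1 comparisons in macrophages and 1 for LPS against control in liver. That threshold called 204 of 9905 genes higher and 179 lower against LPS, 324 and 230 against control, and 623 of 10147 and 479 in liver.

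With 1 library left out the counts in macrophages ran from 0 to 7 (LPS against control), 0 to 2 (LPS+MIC-1 against LPS) and 0 to 6 (against control), and in liver from 2 to 5, 0 to 1 and 1 to 2. The highest macrophage counts came without LPS library 2, where 38.2%, 34.1% and 32.2% of all genes were called lower and 36.9%, 34.0% and 28.1% higher. In liver with LPS, 5 were called without LPS library 2, beside 49.0% of all genes, and 2 without LPS library 3, beside 754 of 10147 genes higher and 642 lower. Log2 fold changes that reversed ran, in macrophages with LPS+MIC-1 against LPS, from -0.08 to 0.40 for Mvk and -0.19 to 0.45 for Fdps. In liver they ran from -0.70 to 0.68 for Pmvk (LPS against control), from -0.80 to 0.24 for Hmgcs1 and -0.03 to 1.04 for Mvk (LPS+MIC-1 against LPS), and from -0.48 to 0.57 for Hmgcs1, -0.25 to 0.82 for Mvk and -0.10 to 0.06 for Fdps (LPS+MIC-1 against control). The causes were not tested. With 3 libraries per group, the spread and an unknown depth limit what could be called.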
